A study of Mus musculus with 12 samples.

Results

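CpG methylation was examined at 10 mouse genes that govern or carry out fatty acid oxidation: Ppara, Ppard, Pparg, Ppargc1a, Ppargc1b, Esrra, Cpt1a, Cpt1b, Pdk4 and Acadm. Every site inside 1 of these genes or within 5000 bp of it was taken when it had a value in all 12 samples. That gave 332 sites out of 312650 such sites in the whole table, and out of 463 listed near these genes before missing values were considered. All 10 genes had at least 3 sites.

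The samples were left ventricles of wild-type FVB/N offspring aged 3 weeks, profiled by reduced representation bisulfite sequencing (RRBS), which cuts DNA at CCGG with MspI and reads the share of methylated cytosines near the cuts. The HFD group (3 females, 3 males) had FVB/NJ mothers on a high-fat diet, and the RD group (4 females, 2 males) had mothers on a regular diet. In both groups the mothers' diet began at 6 weeks of age, mating with RD-fed males followed 8 weeks later, and the offspring themselves received only RD after weaning. The number of mothers is not stated, so the p-values measure the spread between these animals, some of which may be littermates.

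The table lists no read counts beside its percentages, which leaves the depth of each value unknown and allows no counting interval. Between 385299 and 417081 sites had a value in a sample. Library numbers ran from 2 to 8 in HFD and from 9 to 14 in RD, so library order and diet cannot be told apart. The samples are bulk tissue, in which a different mixture of cells and a different level within cells cannot be told apart. Of 28 marker genes of cardiac cell types, 18 had a tested neighbourhood (the sites inside the gene and within 5000 bp), and 1, the endothelial gene Pecam1, differed between the diets (39.4% ± 2.31 in HFD and 49.2% ± 2.76 in RD, SD, n = 6 each, limma adjusted p = 0.0300, against 0.146% of all neighbourhoods called). An unadjusted p below 0.05 was found in 4 of the 18 (Pecam1, Kdr, Itgam and Adipoq; 7.86% of all), and HFD was the lower group in 15 of the 18 (52.1% of all). The mean over the 18 genes was 54.8 to 58.0% in HFD and 58.7 to 60.2% in RD, with no overlap (0.671% of all single neighbourhoods). The marker lists were chosen with earlier results of these data known, and Pecam1 is among the 18. This separation is therefore a description and not a test. The mean over the 5 endothelial genes with sites was 48.8 to 53.9% in HFD and 53.8 to 59.5% in RD. The part of cell mixture in the results that follow was not tested.

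The adult heart draws most of its energy from fatty acids, and its capacity to burn them increases after birth. Nuclear receptors of the PPAR family sense fatty acids and, with the coactivators PGC-1α and PGC-1β and the receptor ERRα, switch on the genes of uptake and oxidation. CPT1 admits fatty acids to the mitochondrion, acyl-CoA dehydrogenases begin their breakdown, and PDK4 holds back the competing use of glucose. In mammals, CpG-rich gene starts are usually unmethylated and gene bodies usually methylated.

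Coverage of the gene starts differed between the genes. The RefSeq promoter table (GRCm38.p6) held 10 promoters of 8 of the genes, 3 of them for Pparg, and none for Ppargc1b and Cpt1b. CCGG stood in 8 of these 10 promoters, and in 52.8% of all 32851 promoters of the table. On neither strand did a member promoter hold AGGTCA repeated after 1 free base, a form of the direct repeat bound by PPAR with RXR (0.0396% of all promoters), or TCAAGGTCA, a form of the element of estrogen-related receptors (0.423%). Within 1000 bp of the start, 4 of the 10 had at least 3 sites and 5 had none. The promoters of Ppara, Cpt1a, Ppargc1a and Acadm are printed because they span this range, from dense coverage to none. They are at chr15:85735526-85735825 (plus strand), chr19:3323051-3323350 (plus strand), chr5:51567676-51567975 (minus strand) and chr3:153944594-153944893 (minus strand), and CpGs with a value in all samples are in capitals.
Ppara: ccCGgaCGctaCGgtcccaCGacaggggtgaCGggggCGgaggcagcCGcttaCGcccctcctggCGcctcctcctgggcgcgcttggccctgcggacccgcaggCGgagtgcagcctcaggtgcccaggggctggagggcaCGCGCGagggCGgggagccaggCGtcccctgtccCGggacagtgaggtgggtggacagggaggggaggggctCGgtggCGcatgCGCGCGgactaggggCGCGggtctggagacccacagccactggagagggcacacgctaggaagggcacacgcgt
Cpt1a: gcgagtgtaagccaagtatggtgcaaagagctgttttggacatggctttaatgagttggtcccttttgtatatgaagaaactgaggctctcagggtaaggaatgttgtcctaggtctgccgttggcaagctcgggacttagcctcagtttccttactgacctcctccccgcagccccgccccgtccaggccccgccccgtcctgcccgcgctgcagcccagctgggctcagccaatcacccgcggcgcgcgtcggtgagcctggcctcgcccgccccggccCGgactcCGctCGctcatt
Ppargc1a: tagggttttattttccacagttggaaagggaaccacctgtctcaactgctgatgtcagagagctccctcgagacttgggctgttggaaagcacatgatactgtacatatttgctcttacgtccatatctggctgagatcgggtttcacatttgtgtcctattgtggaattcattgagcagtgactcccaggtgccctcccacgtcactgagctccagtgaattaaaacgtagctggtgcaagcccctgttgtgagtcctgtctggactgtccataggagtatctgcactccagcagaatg
Acadm: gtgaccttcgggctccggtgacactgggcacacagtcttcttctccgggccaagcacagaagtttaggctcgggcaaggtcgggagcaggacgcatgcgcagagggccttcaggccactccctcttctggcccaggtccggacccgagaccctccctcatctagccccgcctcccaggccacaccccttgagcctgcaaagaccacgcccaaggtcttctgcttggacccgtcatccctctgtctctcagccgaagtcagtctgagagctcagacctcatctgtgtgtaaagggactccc
In the Ppara promoter 23 of 30 CpGs were measured, and in the Cpt1a promoter 3 of 22. None of the 5 CpGs of the Ppargc1a promoter was measured, and it holds no CCGG. None of the 13 CpGs of the Acadm promoter was measured, although CCGG occurs in it 3 times. The nearest complete site lay 93502 bp from the Ppargc1a start and 5590 bp from the Acadm start. The starts of Esrra and Pdk4 also had no complete site within 1000 bp, the nearest being 2801 and 8232 bp away.

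Of the 332 sites, 214 had a mean below 10%, 59 a mean of 10 to 70% and 59 a mean above 70%. By position, 212 lay inside the genes, and 153 of these were in gene bodies, here the part of a gene more than 1000 bp from either end. The other 120 lay outside, and 113 of all 332 fell in a neighbouring or overlapping gene. Windows of 1000 bp on each side of a gene end held at least 3 sites in 6 cases, and all 6 were below 10%. Windows with 2 sites stood at the annotated start of Cpt1a, below 10%, and at the high-coordinate end of Cpt1b, which was methylated. Over all protein-coding genes, 79.7% of 9035 such windows were below 10%. Body means could be formed for 7 of the genes and ranged from Ppara, below 10%, to Acadm, above 70%. The median body over all genes was 66.8% (n = 7814).

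**Figure D1:**
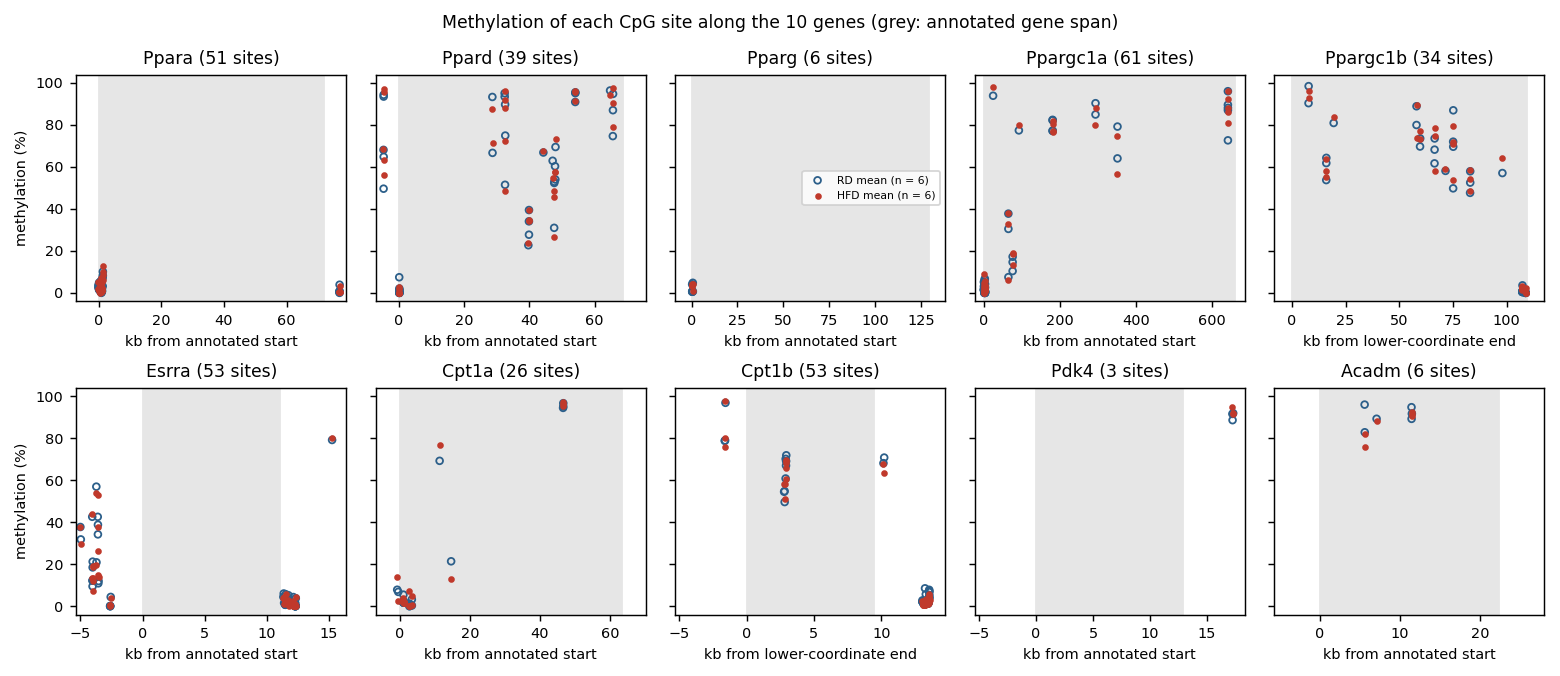
Methylation of each complete CpG site (percent, mean of 6 HFD animals in red and of 6 RD animals in open blue circles) against its distance in kb from the annotated start, or from the lower-coordinate end for Ppargc1b and Cpt1b, whose strand was not given. Grey marks the gene. Sites near the starts of Ppara, Ppard, Pparg, Ppargc1a and Cpt1a lie low, the body sites of Ppard and Cpt1b and most of those of Ppargc1b lie at intermediate to high levels, those of Acadm lie high, those of Ppargc1a include a low stretch near the start, a few intermediate sites and high ones, and Esrra and Pdk4 have no site inside the gene.

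No region of any of the 10 genes differed between the diets after adjustment over all genes tested with limma. Of the 10 neighbourhoods, 8 had a mean of 5 to 95% and were tested, and 0 were called, against 0.146% of all 10279 neighbourhoods tested. An unadjusted p below 0.05 was found in 2 of the 8 (Pdk4 and Acadm), against 7.86% of all. This count fell to 1 with any of HFD female 2, HFD female 4, RD female 1, RD female 2 or RD female 3 left out. HFD was the lower group in 4 of the 8 (52.1% of all) and the higher in the other 4, and in 0 of the 8 were the diets free of overlap (0.671% of all). This balance turned when sites with missing values were included: HFD was then lower in 9 of 10 neighbourhoods, with a median difference of -0.905 points against -0.463 over all genes, and in 5 of 7 bodies in place of 2 of 7. The median body difference was then -1.07 points, against -0.418 over all genes. Neighbourhood intervals of the difference were -1.69 to 1.36 points at Ppard, -0.650 to 1.94 at Ppargc1a, -0.583 to 2.48 at Ppargc1b and -1.04 to 1.77 at Cpt1a. At gene bodies 0 of 7 were called (0.161% of all 6843) and 1, Acadm, had an unadjusted p below 0.05 (8.58% of all). The latter count fell to 0 with any of the same animals left out. None of the 6 end windows had a mean of 5 to 95%. Tested without that limit, 0 of 6 were called (0.0553% of all 9035) and 1, the high-coordinate end of Ppargc1b, had an unadjusted p below 0.05 (6.35% of all). With sites with missing values included, 8 end windows had at least 3 sites and 4 of these had a mean of 5 to 95%. Of the 4, HFD was lower in 3 and 0 were called (4 of 3273 over all genes). Their median difference was -3.18 points, against -0.100 over all genes.

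Single sites and short tiles gave the same count of 0. Of 123 sites with a mean of 5 to 95%, 0 were called with limma (0.0102% of all 157524) and 5 had an unadjusted p below 0.05 (6.53% of all). The diets were free of overlap at 0 of the 123 (0.482% of all). HFD was lower at 63 of them (52.9% of all) and higher at 60, with a median difference of -0.00517 percentage points, against -0.259 over all sites tested. With 1 animal left out this median moved between -0.400 (without RD male 2, 67 lower and 56 higher) and 0.406 (without HFD female 4, 54 lower and 69 higher). With means limited to 20 to 80% it was 0.468, against -0.761 over all sites. Without the limit on the mean, 0 of 332 were called (0.0127% of all 306534) and 21 had an unadjusted p below 0.05 (6.42%). Of 41 tiles of 500 bp with at least 3 sites, 21 were tested, 0 were called (0.0294% of all 23791) and 0 had an unadjusted p below 0.05 (7.81% of all). These counts do not show that the diets act alike at these genes.

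**Figure D2:**
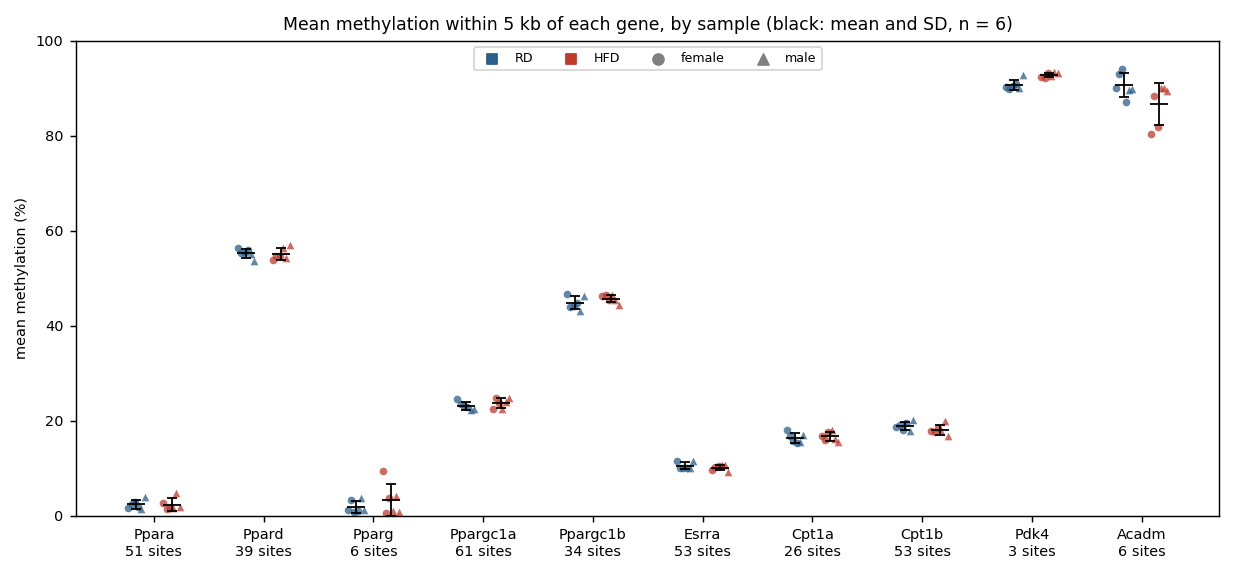
Mean methylation (percent) of all sites inside or within 5000 bp of each gene, 1 point per animal (RD blue, HFD red; circles females, triangles males), with the mean and SD of each diet in black (n = 6). The means run from 1.87% (Pparg, RD) to 92.8% (Pdk4, HFD), while the diets overlap in every gene.

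Ppara encodes PPARα, the fatty acid receptor that drives oxidation genes in heart and liver. Its span is chr15:85734910-85806851 on the plus strand, and 46 of its 51 sites stood in a single run at the start, from 85734804 to 85736244. Over the 39 sites within 1000 bp of the annotated start, HFD animals ranged from 1.02 to 2.88% with a median of 1.758%, and RD animals from 1.29 to 3.45% with a median of 1.757%. The ranges overlapped, and the 95% interval of the difference, HFD minus RD, was -1.47 to 0.894 percentage points. Counted around the start in the promoter table, the 46 sites lay at 2.51% ± 1.40 in HFD and 2.52% ± 1.03 in RD (SD, n = 6 each). The 7 sites counted as body belong to the downstream edge of the same run, and the rest of the gene had no complete site. Body values were 1.43 to 18.1% in HFD (median 3.87%) and 1.05 to 9.49% in RD (median 3.28%). HFD male 3 alone had 18.1%, and the other 5 HFD animals were at 4.75% or less. The interval of the difference was wide, from -4.92 to 6.33 points (limma adjusted p = 0.979).

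Ppard encodes PPARδ, the receptor that also drives oxidation genes in cardiac and skeletal muscle (chr17:28232754-28301469, plus strand). Its 8 start sites were at 0 to 1.23% in HFD (median 0.427%) and at 0 to 4.36% in RD (median 0.881%). Both groups were close to 0, and the interval of the difference was -2.50 to 0.629 points. Its body was methylated at 66.5 to 69.8% in HFD (median 67.1%) and at 66.2 to 69.7% in RD (median 68.4%) over 26 sites. The ranges nearly coincided, with an interval of -2.39 to 1.61 points (limma adjusted p = 0.960). Within that body, runs of sites at most 500 bp apart were ordered by their mean over all animals. The lowest, 4 sites from 28272479 to 28272673 that also lie in the gene 1810013A23Rik, was at 33.0% ± 10.7 in HFD and 31.0% ± 5.19 in RD. The highest, 1 site at 28297531, was at 94.2% ± 4.50 and 96.4% ± 6.18 (SD, n = 6 each). In HFD alone the highest run was 3 sites from 28286845 to 28286886, at 94.6% ± 1.05 against 93.9% ± 3.99 in RD. Another 5 sites before the start, inside Def6, were at 76.2% ± 2.54 in HFD and 74.1% ± 3.99 in RD.

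Pparg encodes PPARγ, the receptor best known for fat cell formation and lipid storage (chr6:115360879-115490404, plus strand). All 6 of its sites lay in the first start window, and its body had none. HFD animals were at 0.541 to 9.49% (median 2.39%) and RD animals at 0.844 to 3.79% (median 1.20%). The groups overlapped, the highest value being that of HFD female 2, and the interval of the difference was -1.68 to 4.83 points. Another Pparg start in the promoter table had 2 sites within 1000 bp and the third had none.

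Ppargc1a encodes PGC-1α, the coactivator of PPAR and ERR receptors that increases mitochondrial mass and oxidation. It is the longest of the 10 genes, 662 kb on chromosome 5 (51454249 to 52115853, minus strand), and had the most sites, 61. The 9 sites within 1000 bp of the outermost annotated start were at 0.585 to 4.59% in HFD (median 1.81%) and 0.667 to 4.03% in RD (median 1.62%). The diets overlapped, with an interval of -1.02 to 2.48 points. The promoter printed above starts transcription far inside this span, where no site was near enough to be read.

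Downstream of the outermost start, 31 sites from 52113456 to 52114224 formed a CpG-dense unmethylated stretch. It was at 0.305 to 2.90% in HFD (median 2.37%) and 0.527 to 2.22% in RD (median 1.002%). The means were 1.92% ± 1.18 and 1.10% ± 0.610 (SD, n = 6 each), and 25 of the 31 sites had the higher mean in HFD. The sites share animals and fragments, so this is a description of 1 stretch, which was chosen after its values were seen, and the diets overlapped. Farther in, 3 sites from 52040781 to 52040839 and 3 from 52051945 to 52052014 were at intermediate levels, 16.9% ± 3.78 and 25.7% ± 1.65 in HFD against 14.1% ± 9.82 and 25.2% ± 4.25 in RD. The other runs of body sites had means of 65.7% ± 8.01 to 98.1% ± 4.54 in HFD. Over all 52 body sites the level was 25.6 to 28.8% in HFD (median 27.8%) and 26.1 to 28.4% in RD (median 26.5%), with overlap and an interval of -1.03 to 2.28 points (limma adjusted p = 0.901). Of the 52 body sites, 31 belong to the unmethylated stretch. Only 5 body sites, from 51474153 to 51474223, lie downstream of the printed promoter's start at 51567725. These 5 were at 88.6% ± 3.76 in HFD and 86.7% ± 3.11 in RD, so the body mean describes mainly sites upstream of that start.

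Ppargc1b encodes PGC-1β, a related coactivator of mitochondrial and lipid genes (chromosome 18, 61291445 to 61400756, strand not given in the tables used here). Its 30 body sites were at 50.3 to 52.6% in HFD (median 51.9%) and 48.8 to 52.8% in RD (median 50.4%). The HFD range lay inside the RD range, and the interval of the difference was -0.838 to 2.79 points (limma adjusted p = 0.837). At the high-coordinate end 4 sites were at 0 in all 6 RD animals and at 0 to 1.35% in HFD (median 0.543%). Only 1 of the 4 sites had a value above 0 in any animal. The HFD females averaged 1.21% and the HFD males were at 0, and the unadjusted interval of the difference was 0.0314 to 1.39 points. This was the end window with an unadjusted p below 0.05 (0.0281 with limma without a limit on the mean, adjusted p = 0.760). A further 8 sites near that end, from 61398781 to 61398822, were at 2.14% ± 2.68 in HFD and 0.900% ± 0.993 in RD (SD, n = 6 each). These 8 are among the 30 body sites, and the other runs of body sites had HFD means of 53.8% ± 7.89 to 94.6% ± 2.78.

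Esrra encodes ERRα, the orphan receptor that works with PGC-1α on oxidative genes (chr19:6910977-6922048, minus strand). No complete site lay inside the gene or within 1000 bp of its start, so its body and start were not measured here. All 53 sites lay in its flanks, and 48 of them fall in the neighbours Prdx5, Trmt112, Catsperz or Kcnk4. The 16 sites within 1000 bp of its 3′ end, in Trmt112, were at 0.654 to 3.31% in HFD (median 2.07%) and 0.718 to 6.50% in RD (median 2.31%). The ranges overlapped, with an interval of -2.68 to 0.578 points. Upstream of the start, 14 sites from 6925586 to 6926095 toward Kcnk4 had an intermediate level, 24.7% ± 2.85 in HFD and 24.6% ± 1.06 in RD. Over the whole neighbourhood the interval of the difference was -1.48 to 0.708 points (limma adjusted p = 0.902).

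Cpt1a and Cpt1b encode the liver and muscle forms of carnitine palmitoyltransferase 1, the gate for long-chain fatty acids into mitochondria, and the muscle form predominates in the adult heart. Around the Cpt1a start in the promoter table (gene span chr19:3322326-3385735, plus strand) 13 sites were at 0.371 to 3.12% in HFD (median 2.41%) and 0.580 to 4.75% in RD (median 1.89%). The start was unmethylated in both diets and the ranges overlapped (limma without a limit on the mean, adjusted p = 0.982). The 2 sites in the window of the annotated start, 3321560 and 3321858, were at 8.10% ± 2.97 in HFD and 7.30% ± 0.700 in RD (SD, n = 6 each). Past the table's start, 4 sites from 3325028 to 3325086 and 2 at 3325739 and 3325748 were also low, at 1.95% and 2.76% in HFD and 0.538% and 1.73% in RD. Farther on, averaged over all animals, the single sites 3333681 and 3336967 were at 72.9% and 17.05%, and 3 sites from 3368957 to 3369013 at 95.9%. The body as a whole was at 16.3 to 18.8% in HFD (median 17.3%) and 15.99 to 18.9% in RD (median 16.96%) over 24 sites, among them the 13 start sites and the 6 low sites after them. The HFD range lay inside the RD range, with an interval of -1.32 to 1.93 points (limma adjusted p = 0.950).

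Cpt1b (chr15:89416405-89425862, strand not given in the tables used here) had 8 body sites and 2 sites in an end window, and 50 of its 53 sites also lie in Gm44502, Chkb or C730034F03Rik. The 2 end sites, at 89426552 to 89426608 and shared with Chkb, were at 62.2 to 72.1% in HFD (median 63.7%) and 64.97 to 76.9% in RD (median 66.8%), with overlap. The body was at 56.5 to 69.4% in HFD (median 62.5%) and 60.8 to 65.5% in RD (median 61.6%). The RD range lay inside the wider HFD range, and the interval was -3.63 to 4.89 points (limma adjusted p = 0.962). Beyond its high-coordinate end, 40 sites from 89429440 to 89429973, in and around the Chkb and C730034F03Rik genes, were at 1.77% ± 1.14 in HFD and 2.78% ± 1.47 in RD (SD, n = 6 each). These flanking sites outnumber those of Cpt1b itself, so the neighbourhood mean of 18.0% ± 1.05 in HFD and 18.9% ± 0.873 in RD describes mainly the neighbours. Its interval was -2.28 to 0.464 points (limma adjusted p = 0.781).

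Acadm encodes medium-chain acyl-CoA dehydrogenase, which catalyses the first step of each round of medium-chain fatty acid oxidation (chr3:153922353-153944643, minus strand). Its 6 sites all lay in the body. Together they were at 80.3 to 90.1% in HFD (median 88.9%) and 87.2 to 94.1% in RD (median 89.9%). The groups overlapped, with 2 HFD females lowest, and the unadjusted interval of the difference was -8.55 to -0.275 points for the neighbourhood (limma adjusted p = 0.609). The females differed by -7.64 points and the males by 0.201 points. That difference between the sexes had a limma interaction p of 0.0345 and an adjusted p of 0.971. Over all 8 tested neighbourhoods of these genes 0 interactions were called (0% of all 10279), and this was the 1 with an unadjusted p below 0.05 (4.88% of all).

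The Acadm difference stood mainly at 1 CpG, chr3:153939053, 5590 bp downstream of the start, which had the smallest p of all 123 sites tested. The HFD females were at 72.2, 82.4 and 66.7%, and the HFD males at 85.7, 89.7 and 94.4%. The RD females were at 100, 90.9, 95.7 and 89.5%, and both RD males at 100%. The HFD values lay lower but overlapped with RD through the HFD males. Means were 81.8% ± 10.6 and 96.0% ± 4.83 (SD, n = 6 each), with an unadjusted interval of -23.4 to -8.76 points (limma adjusted p = 0.160). The neighbouring CpG at 153939036 was at 75.6% in HFD and 82.8% in RD (adjusted p = 0.875 with limma), and the 4 others at 88.1 to 92.4% in HFD and 89.2 to 94.8% in RD.

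**Figure D3:**
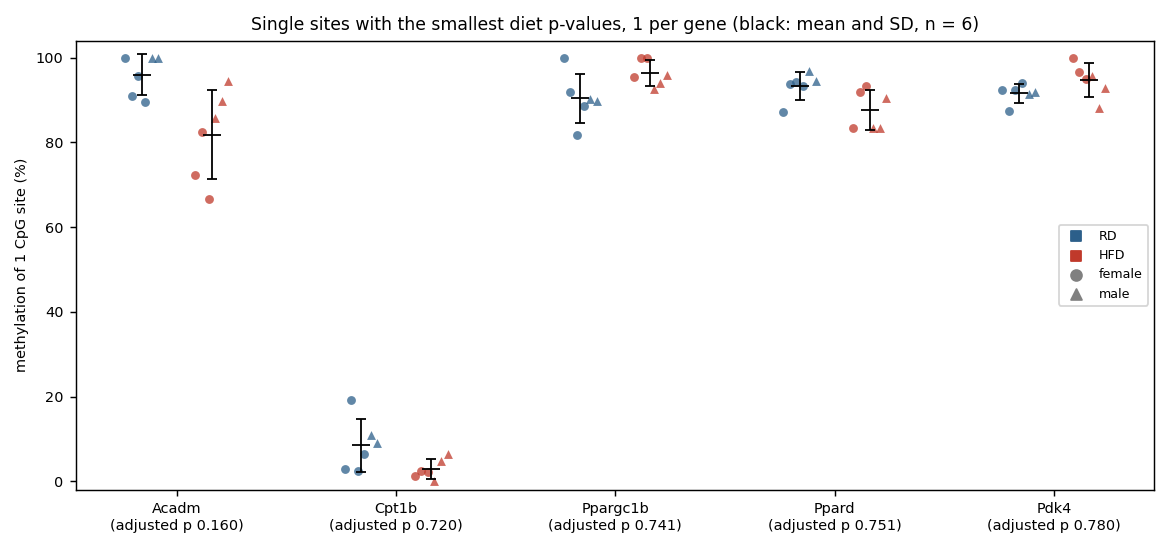
Methylation (percent) at the site with the smallest diet p in each of the 5 genes where that p was smallest, 1 point per animal (RD blue, HFD red; circles females, triangles males), with mean and SD in black (n = 6 per diet). The Acadm site has HFD values of 66.7 to 94.4% and RD values of 89.5 to 100%, and at each of the 5 sites the diets overlap.

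Pdk4 encodes pyruvate dehydrogenase kinase 4, a PPAR target that restrains glucose oxidation when fatty acids are used (chr6:5483351-5496278, minus strand). It had 3 sites, all beyond its 3′ end, from 5478991 to 5479062, and none inside the gene. The HFD females were at 92.3, 92.2 and 93.2%, and the HFD males at 92.6, 93.3 and 93.2%. The RD females were at 90.3, 89.8, 90.4 and 90.9%, and the RD males at 90.1 and 92.7%. RD male 2 lay within the HFD range and the other 5 RD animals lay below it. Means were 92.8% ± 0.482 and 90.7% ± 1.06 (SD, n = 6 each), with an unadjusted interval of 0.856 to 3.11 points (limma adjusted p = 0.255).

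The sites with the smallest p in the other genes did not pass the adjusted threshold either, although those of Cpt1b, Ppargc1b and Ppard had an unadjusted p below 0.05. At Cpt1b the site was 89429632, in the flank shared with Chkb, with 0 to 6.49% in HFD (median 2.36%) and 2.44 to 19.2% in RD (median 7.74%). At Ppargc1b it was 61299179, with 92.5 to 100% in HFD (median 95.7%) and 81.8 to 100% in RD (median 90.0%). At Ppard it was 28261444, with 83.3 to 93.3% in HFD (median 86.9%) and 87.2 to 96.9% in RD (median 94.0%). The diets overlapped at all of these, and their limma adjusted p-values were 0.720, 0.741 and 0.751. The corresponding sites of Pdk4 (5479062), Cpt1a (3336967), Ppargc1a (51764876), Esrra (6925651) and Ppara (85736244) had limma adjusted p-values of 0.780 to 0.926, and Pparg had no site with a mean of 5 to 95%.

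**Figure D4:**
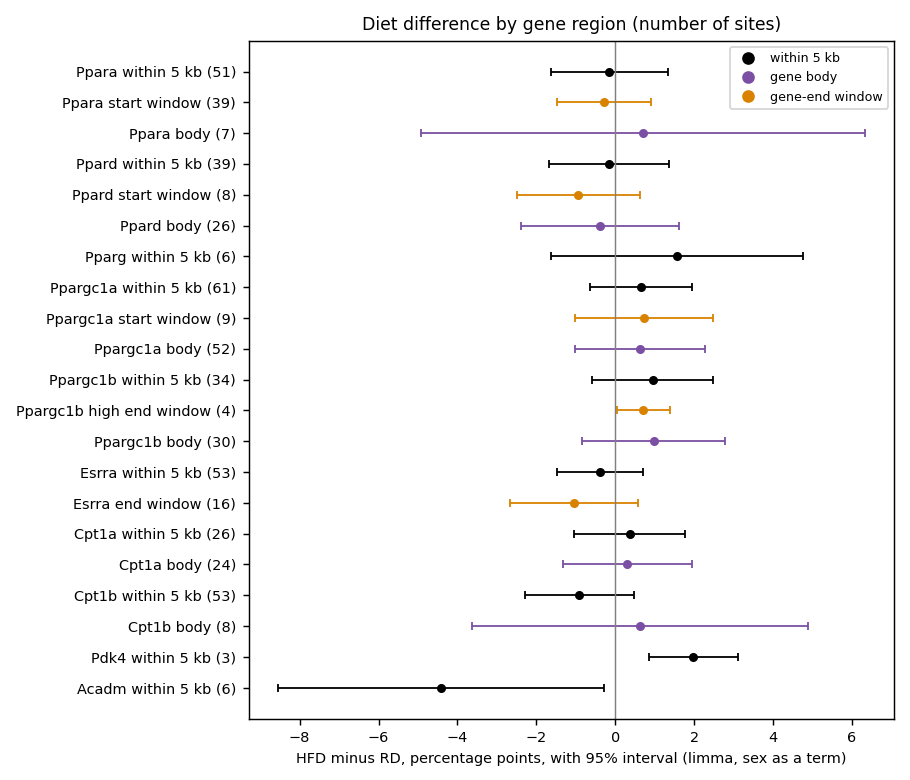
Difference between the diets (HFD minus RD, percentage points, untransformed rates) for each region of the 10 genes with at least 3 sites, with its 95% interval from limma, unadjusted for the number of regions. Black is the neighbourhood within 5000 bp, purple the gene body and orange a gene-end window, and numbers in brackets are sites. Where all sites of a gene fall in 1 region (Acadm body, Pparg start), only the neighbourhood is drawn. Only the intervals of Pdk4, Acadm and the high-coordinate end of Ppargc1b lie to 1 side of 0.

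Other genes of fatty acid use were read from a list of 52. Of these, 43 had at least 3 sites in their neighbourhood and 31 were tested. With limma 0 were called (0.146% of all) and 1 had an unadjusted p below 0.05 (7.86% of all), with a median difference of -0.0261 points over the 31. The smallest p belonged to Mlycd, malonyl-CoA decarboxylase, which removes the inhibitor of CPT1, with 10.7% ± 0.757 in HFD and 12.4% ± 0.955 in RD (adjusted p = 0.467, SD, n = 6 each). Next were Pnpla2, a triglyceride lipase, with 20.2% ± 1.68 and 22.2% ± 1.48 (adjusted p = 0.668), and Perm1, a muscle regulator of oxidative genes, with 36.5% ± 3.19 and 39.4% ± 2.19 (adjusted p = 0.691). Of 31 start windows of these genes, counting the window shared by Hadha and Hadhb for each, 28 were below 10%, as were 4 of 4 transcript starts of the 10 genes with at least 3 sites. Over all 7330 transcript starts with at least 3 sites the share was 87.8%. The 31 windows instead lie at annotated gene ends, where the share was 79.7% of 9035 windows, starts and other ends together.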

How the data were processed

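RRBS was run on left ventricle DNA of 12 offspring. The authors deposited 1 table of percent methylation per CpG and sample, per the file headers, and the values were used as deposited. The build is mm10 and the tools include FastQC, Trim Galore, Bismark 0.19 and limma, per the submitters' processing notes. Coverage and any minimum on it are not given in the sources used here, so the tests use rates. At promoters in the RefSeq table (GRCm38.p6), 45514 of 45522 listed positions (99.98%) fell on a CpG, and gene spans came from the RefSeq gene table of that assembly.

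Rates as fractions were turned into log2((rate + 0.05)/(1 − rate + 0.05)) and fitted with limma 3.58.1 (R 4.3.3) on diet plus sex. All autosomal features with at least 3 sites (1 for single sites), a value in all samples and a mean of 5 to 95% entered, and two-sided p-values were adjusted over all of them (Benjamini-Hochberg, threshold 0.05). Intervals in percentage points came from limma on untransformed rates without the limit on the mean. Promoter entries of the table gave strand for 8 genes. All 10 genes were named. Single sites were named as the 1 with the smallest p per gene, of which at most 5 were shown for every sample, and other pathway genes as the 3 with the smallest p. The genes and lists were chosen with earlier results of these data known. On simulated rates, 185 of 200 neighbourhoods shifted by 1 on the log2 ratio scale were recovered. A shift of 1 at 200 sites gave 0 recovered, and a shift of 2 gave 119. These shifts were not converted to percentage points, smaller ones were not simulated, and the simulated animals were independent. Recovery of differences as small as those seen at the 10 genes, or among littermates, is therefore not known. Figures were drawn with matplotlib 3.10.9.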

Additional observations from a re-analysis of the deposited data

Results flagged for a closer look

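In 3 of 42 sets of values (a region in the animals of 1 diet), the extreme animal's distance to the nearest of the others exceeded the 95% critical value of Dixon's test, and chance alone would give about 2.1. At Ppara, HFD male 3 had a neighbourhood mean of 4.83%, and the other 5 HFD animals lay at 1.47 to 2.69%. The body sites of Ppara gave 18.1% in the same animal, against 1.43 to 4.75% in the others. In the window at the 3′ end of Esrra, RD male 2 had 6.50%, and the other RD animals lay at 0.718 to 2.48%.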

How the results depend on the processing

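In no alternative was any region or site of the 10 genes called with limma. Tried were another offset, rates without the log ratio, wider and narrower limits on the mean, moderated variances with a trend, sites with missing values, no sex term, other tile, window and flank sizes, and each animal left out. Transcript starts in place of annotated ends, and untransformed rates without a limit, were added after seeing the data. The smallest adjusted p over the alternatives was 0.136 at sites, 0.585 at tiles, 0.581 at gene ends, 0.538 at bodies, 0.0650 at neighbourhoods and 0.621 for the interaction. The neighbourhood value is Pdk4 without RD male 2. For 32 named differences, 28 of 704 recomputed values changed sign, in 14 of the differences, and none was past the threshold. Over all features, calls ranged over the alternatives from 0 to 78 at sites, 0 to 19 at tiles, 0 to 6 at gene ends, 0 to 12 at bodies, 0 to 17 at neighbourhoods and 0 to 3 for the interaction. With the replicate number as a replicate block, 0 features were called in any class, and the smallest adjusted p of the 10 genes was 0.835 at sites and 0.706 at neighbourhoods. Same-numbered animals of the 2 diets had correlations of -0.0295 to 0.0104 between their deviations from the group means across sites. Differently numbered animals of the same sex had -0.0301 to 0.0405. With groups of 2 to 4 animals, these values cannot decide whether the numbers mark a shared litter or batch. Coverage minimums could not be run without read counts. With sites with missing values included, HFD was lower in 9 of 10 neighbourhoods and 5 of 7 bodies, against 4 of 8 and 2 of 7. It was also lower in 3 of 4 end windows, where 0 had been tested before. Median differences were -1.07 points at bodies (-0.418 over all genes) and -3.18 at end windows (-0.100 over all genes). The cause was not tested. The effect of depth could not be measured.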
